A study of Homo sapiens with 4 samples.

Results

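Translation initiation factor genes were examined for binding of the transcription factor USF1 in Huh7, an established human liver cancer line. The set holds the 52 protein-coding genes whose symbols begin with EIF1 to EIF6, without the 4 EIF2AK kinase genes, out of 20033 protein-coding genes placed on the assembled chromosomes in RefSeq (GRCh38.p14). Membership in the set rests on the symbol. The cells of every library overexpressed USF1, per the study's design text, and the precipitating antibody recognised the FLAG tag, per the labels. Each of 2 immunoprecipitated libraries (IP 1 and IP 2) was set against the sonicated input chromatin of the same number (input 1 and input 2). The resulting peak lists are called list 1, from the first IP and its input, and list 2, from the second. The labels number the replicates without saying whether they came from separate cultures. Because of the overexpression, occupancy by USF1 at its native level is not measured by these lists. Chromatin from cells without the tagged protein and IgG precipitates were not analysed here, so enrichment that arises without the tagged protein was not measured either.

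Initiation factors bring the ribosome to messenger RNA. The eIF4F complex binds the cap through eIF4E, unwinds the leader with the helicase eIF4A and recruits the small ribosomal subunit through eIF4G and eIF3. The GTP-binding complex eIF2 delivers the initiator tRNA, is recharged with GTP by eIF2B, and acts with eIF1, eIF1A, eIF5 and eIF5B in choosing the start codon and joining the large subunit. USF1 is a bHLH-ZIP factor that recognises E-boxes, whose canonical form is CACGTG. The cap-binding protein gene EIF4E is a textbook target of MYC, a factor that reads the same sequence.

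The bases just before the start sites of EIF4G1, EIF1B, EIF4E, EIF3B, EIF3F and EIF3K are shown because, of the members with a shared peak over the promoter window, these 6 had the highest folds by the lower of the pair. All but EIF3B held the canonical E-box there. The EIF3B summits lay before its stretch, at positions -740 (list 1) and -724 (list 2) from the start site. Its list 1 peak reached the stretch only at the edge. The 6 genes were picked by fold. Of all 17 members with a promoter window under a shared peak, 9 held CACGTG in the window (52.9%). That share was 32.9% over the 2012 protein-coding genes with such a window. EIF4A1, the helicase gene of the same complex as EIF4E, is shown beside the 6 genes. Its stretch held no CACGTG and was under a peak of list 2 alone. Each stretch gives the 250 bases before the start site in the direction of the gene (RefSeq, GRCh38.p14), with CACGTG in capitals.
EIF4G1, chr3:184314356-184314605, plus strand: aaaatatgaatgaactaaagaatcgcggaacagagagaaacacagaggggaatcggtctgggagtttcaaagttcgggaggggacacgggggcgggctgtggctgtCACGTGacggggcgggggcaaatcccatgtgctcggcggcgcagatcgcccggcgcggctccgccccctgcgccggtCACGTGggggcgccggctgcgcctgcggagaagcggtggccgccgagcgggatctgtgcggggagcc
EIF1B, chr3:40309457-40309706, plus strand: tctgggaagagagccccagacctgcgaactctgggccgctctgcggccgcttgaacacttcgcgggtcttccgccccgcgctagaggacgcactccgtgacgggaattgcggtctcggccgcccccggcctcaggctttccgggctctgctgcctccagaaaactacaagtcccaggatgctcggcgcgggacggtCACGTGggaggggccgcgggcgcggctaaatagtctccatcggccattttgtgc
EIF4E, chr4:98929134-98929383, minus strand: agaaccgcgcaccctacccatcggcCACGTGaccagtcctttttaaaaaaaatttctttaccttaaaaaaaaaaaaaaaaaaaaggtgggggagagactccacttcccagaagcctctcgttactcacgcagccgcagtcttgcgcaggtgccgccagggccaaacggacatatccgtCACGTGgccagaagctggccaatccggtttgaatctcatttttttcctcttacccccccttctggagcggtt
EIF3B, chr7:2354577-2354826, plus strand: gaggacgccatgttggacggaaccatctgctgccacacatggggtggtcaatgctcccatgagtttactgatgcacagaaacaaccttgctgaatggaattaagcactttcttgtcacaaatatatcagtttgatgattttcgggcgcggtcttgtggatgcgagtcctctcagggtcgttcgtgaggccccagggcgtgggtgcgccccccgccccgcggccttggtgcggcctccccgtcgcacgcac
EIF3F, chr11:7987087-7987336, plus strand: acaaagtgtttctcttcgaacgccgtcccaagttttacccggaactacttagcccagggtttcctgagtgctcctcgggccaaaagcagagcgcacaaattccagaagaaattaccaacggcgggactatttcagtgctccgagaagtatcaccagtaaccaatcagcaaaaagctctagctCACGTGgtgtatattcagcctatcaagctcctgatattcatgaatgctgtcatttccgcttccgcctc
EIF3K, chr19:38618938-38619187, plus strand: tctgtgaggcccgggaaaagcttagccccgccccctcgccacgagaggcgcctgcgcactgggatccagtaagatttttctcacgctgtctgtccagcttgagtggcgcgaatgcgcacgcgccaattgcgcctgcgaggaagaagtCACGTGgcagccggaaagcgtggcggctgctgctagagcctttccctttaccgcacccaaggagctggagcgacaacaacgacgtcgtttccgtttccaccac
EIF4A1, chr17:7572575-7572824, plus strand: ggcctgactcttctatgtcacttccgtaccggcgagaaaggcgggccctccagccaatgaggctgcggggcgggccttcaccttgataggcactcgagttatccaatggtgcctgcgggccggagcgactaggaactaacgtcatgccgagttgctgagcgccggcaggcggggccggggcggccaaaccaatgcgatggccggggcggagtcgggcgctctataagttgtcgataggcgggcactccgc

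Of the 52 initiation factor genes, 20 had a shared peak, meaning a peak of one list with its centre in the gene or within 1 kb of it with at least 1 bp in common with a peak of the opposite list. That was 38.5% of the genes, beside 16.9% of all protein-coding genes by the same rule. A list 1 peak was present at 25 genes (48.1%, beside 25.9% of all protein-coding genes) and a list 2 peak at 32 (61.5%, beside 47%). EIF2B5 and EIF6 had peaks in both lists that did not overlap, as had 913 of all 20033 protein-coding genes. A further 3 had a peak in list 1 only and 10 in list 2 only, beside 886 and 5127 of all protein-coding genes. The remaining 17 had none (32.7%, beside 48.5% of all protein-coding genes). The median length of initiation factor genes was 20486 bp, against 24130 bp over all protein-coding genes, and the shares were not matched for length. With peak centres required to lie inside the gene, which leaves out those just outside it, the share with a list 2 peak turned round, to 13 members (25%) beside 35.7% of all protein-coding genes. Under that setting a list 1 peak was present at 13 members (25%, beside 17.9%) and a shared peak at 12 (23.1%, beside 11.9%). With centres required within 1 kb of a gene end 19 members kept a shared peak, beside 11.7% of all protein-coding genes. The 2 lists are replicates of one condition, with no second condition to set them against, so these are counts without a test.

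**Figure D1:**
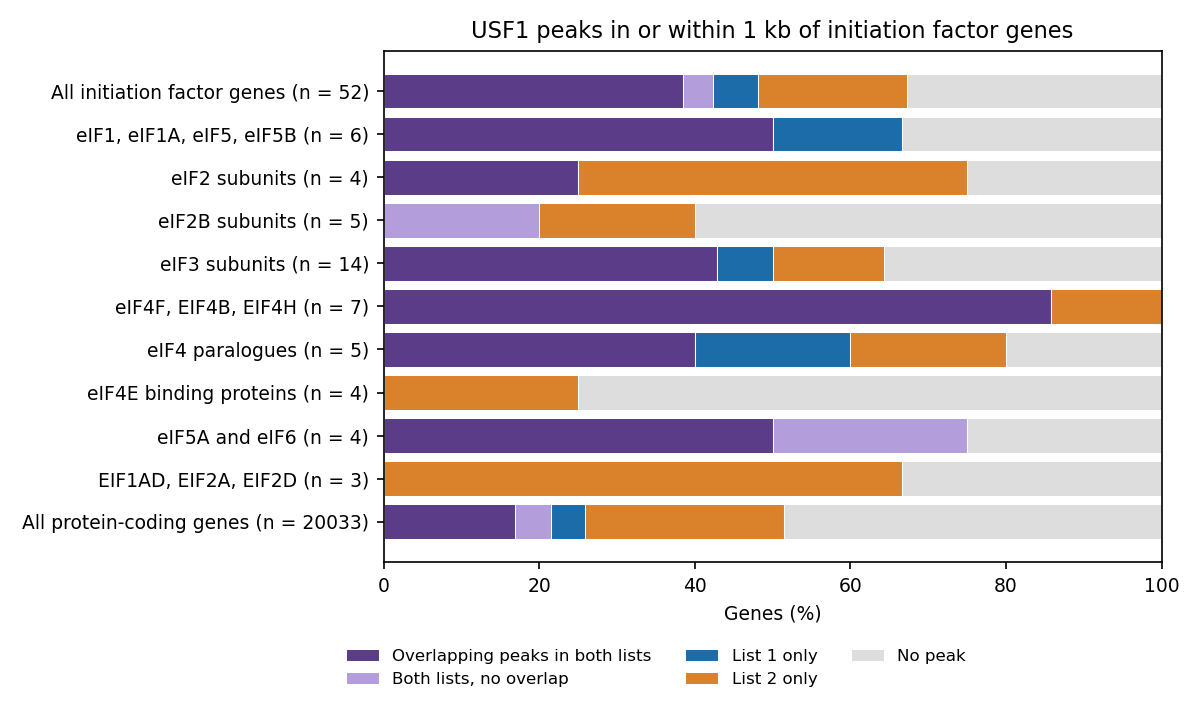
Horizontal bars give the percent of genes in each factor group by peak status, with the number of genes in brackets: overlapping peaks in both lists, peaks in both lists without overlap, list 1 only, list 2 only, or no peak. The eIF4F bar holds 6 of 7 genes with overlapping peaks, EIF4A1 among them through a peak past its far end. The eIF2B and eIF4E binding protein bars hold 0, and the bar of all protein-coding genes holds 16.9%.

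The deposited values behind each peak are the authors' own. Tags are the IP reads kept in the peak, not scaled to library size, and fold sets the IP tags at the summit over the number the caller predicts from input. The false discovery rate (FDR), in percent, compares the peaks with those called after exchanging IP for input. The lists rest on 47165647 kept IP tags and 46345938 input tags (list 1), and on 43942638 IP tags and 43562726 input tags (list 2). They stood differently against their swapped controls, with a median FDR of 100% over all list 1 peaks and 11.2% over all list 2 peaks. An FDR of 100% at a list 1 peak was therefore the commonest value of that list, held by 9200 of its 14293 peaks on assembled chromosomes.

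The cap-binding complex and its helicase cofactors had the fullest coverage, with a list 2 peak at 7 of 7 genes, a list 1 peak at 6 and a shared peak at 6. Over all protein-coding genes the shares were 47%, 25.9% and 16.9%, and the 16.9% also stands beside the shared counts of the groups below. EIF4A1 counts in list 1 and as shared only through a peak past its far end. EIF4G3 counts in list 2 only through a peak deep in the gene body. EIF4G1, the scaffold that joins the cap-binding protein, the helicase and eIF3, had the highest fold of any member in list 1. Its peak at chr3:184314116-184315047 held 124 tags over 932 bp in list 1, and the list 2 peak held 110 tags over 946 bp. Fold was 22.75 (list 1) and 18.68 (list 2), with an FDR of 0 in both. Only 0.154% of list 1 peaks and 0.615% of list 2 peaks had a fold as high. The peaks spanned almost the same bases, with 932 bp in common and summits 20 bp apart.

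EIF4E, the cap-binding protein itself, had 178 tags over 2102 bp in list 1 (chr4:98928284-98930385) and 121 tags over 1064 bp in list 2. The list 1 peak was the widest of the member peaks in that list, and the list 2 peak lay wholly inside it. Per kb of peak this came to 84.7 tags in list 1 and 114 in list 2, so the wider peak was the thinner one. Fold was 12.5 (list 1) and 21.6 (list 2), and the FDR was 1.05% and 0. The summits lay 94 bp apart, at positions -135 and -229 from the start site in list 1 and list 2.

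EIF4A1, the main eIF4A helicase gene, differed from EIF4E in where its peaks lay. At its promoter there was a list 2 peak alone (88 tags over 1559 bp, fold 6.96, FDR 0.79%), with the summit at position -109. List 1 held no peak there. Its shared peak was past the other end of the gene, at chr17:7579088-7579883 in list 1, with 39 tags and a fold of 4.96 (FDR 100%), and with 51 tags and a fold of 10.63 (FDR 0.9%) in list 2. The centres lay 479 bp (list 1) and 534 bp (list 2) beyond the gene's end, and both peaks covered the promoter window of CD68, a lysosomal membrane glycoprotein gene. The rule counts this peak for EIF4A1 although it lies over the start of another gene. With only a gene's own promoter window counted, 17 of the 44 members with such a window had a shared peak (38.6%, beside 12.7% of protein-coding genes), and EIF4A1 was not among them.

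EIF4A2, the paralogous helicase gene, had a shared promoter peak of 37 tags in list 1 and 124 in list 2. The list 2 peak was 1931 bp wide against 723 bp in list 1, and the summits were 623 bp apart, with folds of 5.1 in list 1 and 7.3 in list 2. EIF4B, which stimulates the helicase, had the most tags of any member in both lists, 229 over 1754 bp in list 1 and 268 over 2416 bp in list 2. Its folds were 7.95 in list 1 and 7 in list 2 (FDR 1.02% and 0.17%). EIF4H, a second helicase cofactor, had 97 and 103 tags in peaks of 1336 and 1321 bp, with folds of 4.77 and 4.86 in list 1 and list 2. EIF4B thus ranked first by tags and EIF4G1 by list 1 fold, while EIF4H was below the median fold of each whole list (5.83 in list 1 and 5.6 in list 2). EIF4G3, a second scaffold gene, had a single list 2 peak deep in the gene body (28 tags, fold 6.38). EIF4G1 had a further list 2 peak past its far end (40 tags, fold 7.44), over the promoter window of FAM131A.

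**Figure D2:**
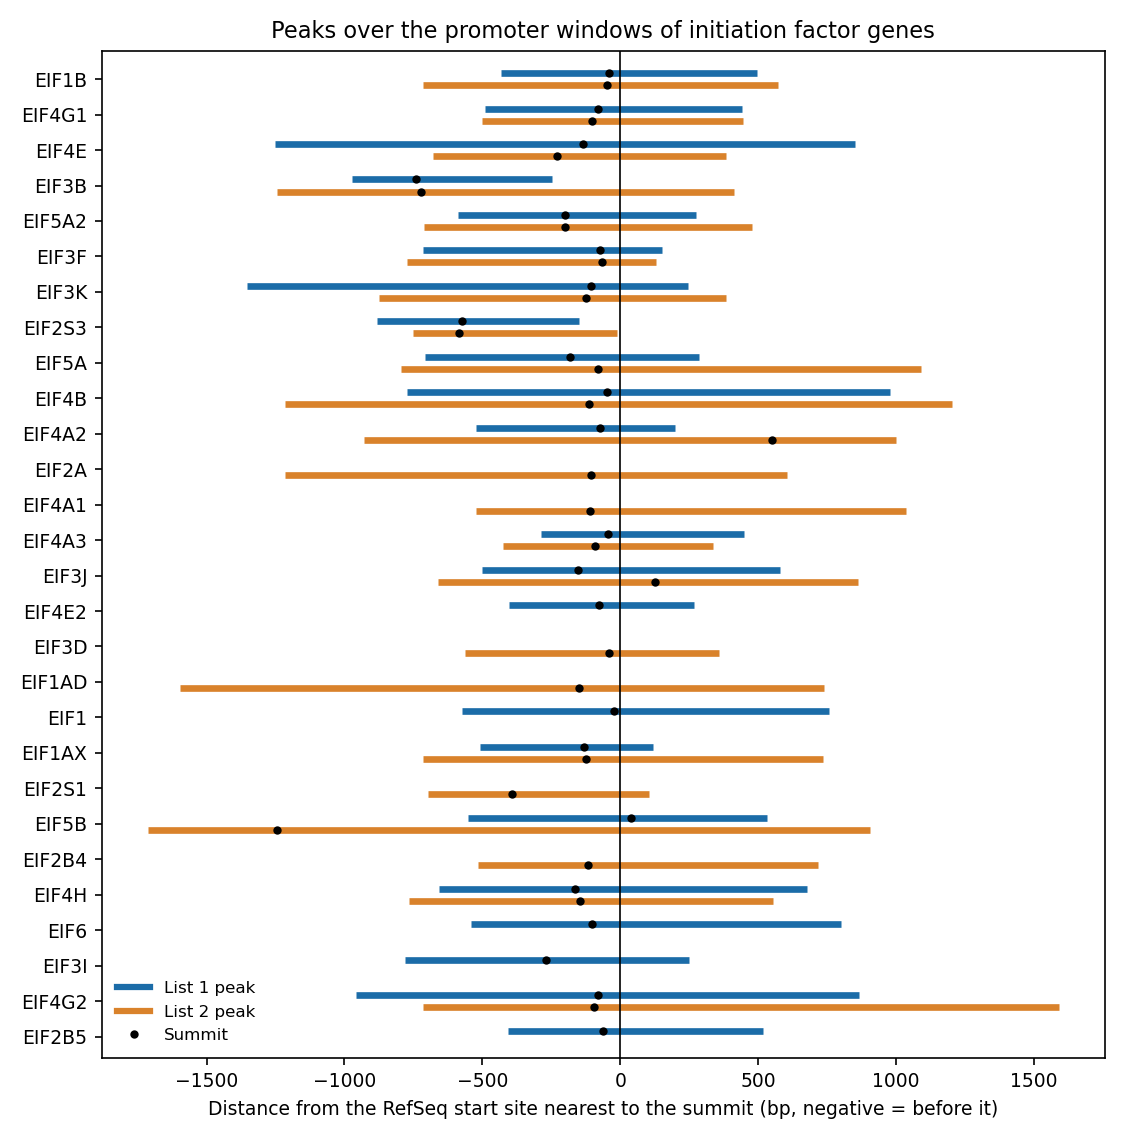
Each bar spans a peak of list 1 (upper) or list 2 (lower) over a member's own promoter window, with distance in bp from the RefSeq start site nearest to its summit on the horizontal axis and black points at summits. Most summits sit shortly before the start site; those of EIF3B and EIF2S3 lie further out in both lists, and those of EIF4A2 and EIF5B differ between the lists.

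Among the 6 factors of start codon choice, 3 had a shared peak, and EIF1B had the highest folds. EIF1B encodes a close homologue of eIF1. Its peak held 133 tags over 932 bp in list 1 (chr3:40309273-40310204) and 168 tags over 1289 bp in list 2. Fold was 14.24 in list 1 and 23.11 in list 2, the highest fold of any member in list 2, with summits 5 bp apart and FDRs of 2.21% and 0. The peak also covered the promoter window of the divergent long non-coding RNA gene EIF1B-AS1. EIF1, the better known homologue, had a list 1 peak only (114 tags, fold 5.55, FDR 7.48%), at its promoter. EIF1AX, which encodes eIF1A, had 37 tags in list 1 and 78 in list 2 with folds of 5.55 and 4.08. EIF5B, the GTPase of subunit joining, had a promoter peak of 78 tags and a fold of 4.93 in list 1, overlapped by a 2622 bp peak of 171 tags and a fold of 4.3 in list 2. That list 2 peak, the widest at any member, also overlapped a second list 1 peak (92 tags) on the side of the neighbouring gene TXNDC9. A further list 2 peak lay inside EIF5B (34 tags, fold 4.81). EIF5, which drives GTP hydrolysis by eIF2, had no peak in either list. EIF1AY had none either, and neither list held any peak on chromosome Y.

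The 4 eIF2 subunit genes and the 5 eIF2B subunit genes had 1 shared peak between them. EIF2S3, the gamma subunit that binds GTP, had 57 tags over 735 bp in list 1 and 39 tags over 741 bp in list 2. Fold was 8.88 in list 1 and 5.82 in list 2, with summits 10 bp apart at -575 and -585, outside the gene. EIF2S1, the alpha subunit that the stress kinases phosphorylate, had a list 2 peak only, of 38 tags and a fold of 5.31, which also covered the promoter window of ATP6V1D, a vacuolar ATPase subunit gene. EIF2S2, the beta subunit, had a list 2 peak only (88 tags, fold 4.9). EIF2B4 had a list 2 peak only (54 tags, fold 4.9), also within 1 kb of SNX17. EIF2B5, the catalytic subunit, had a promoter peak in list 1 (50 tags, fold 4.08, FDR 100%) and in list 2 a peak past its other end (54 tags, fold 5.29). EIF2B1, EIF2B2, EIF2B3 and EIF2S3B had none.

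Of the 14 eIF3 subunit genes, 6 had a shared peak, namely EIF3A, EIF3B, EIF3F, EIF3H, EIF3J and EIF3K. EIF3B, a core scaffold subunit, had 114 tags over 728 bp in list 1 (chr7:2353853-2354580) and 194 tags over 1657 bp in list 2. Both peaks were also centred within 1 kb of the neighbouring gene SNX8, though over none of its promoter windows, so they cannot be given to EIF3B alone. Fold was 11.05 in list 1 and 20.07 in list 2, with summits 16 bp apart and FDRs of 4.44% and 0. The summits lay within the first bases of the gene as annotated (its start is at 2354086), but at positions -740 (list 1) and -724 (list 2) from the start site of its RefSeq promoter window, so the list 1 peak reached that window only at its edge. EIF3F had 120 tags over 869 bp in list 1 and 106 over 903 bp in list 2. Its folds of 11.03 in list 1 and 9.82 in list 2 were closer than those of EIF3B, and its summits were 7 bp apart.

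EIF3A, the largest subunit, had 78 tags in list 1 and 84 in list 2 at one end of the gene, with folds of 7.95 and 10.41 and an FDR of 48.71% in list 1 against 0.2% in list 2. EIF3K had 130 tags over 1600 bp in list 1 and 128 over 1261 bp in list 2 (folds 8.27 and 8.89). The list 1 peak also covered the promoter window of the neighbouring gene MAP4K1, and the list 2 peak was centred within 1 kb of that gene. EIF3J, a loosely held subunit, had the lowest list 1 fold of any member peak, 3.68 with 70 tags, against 6.43 with 101 tags in list 2. The EIF3H pair lay 10627 bp from the nearer gene end in list 1 and 10687 bp in list 2, the only shared peak of a member away from gene ends (65 and 54 tags, folds 4.17 and 4.56). A list 2 peak at an end of EIF3H, also within 1 kb of UTP23, had no list 1 counterpart (90 tags, fold 7.07). Nor had 2 narrow ones inside the gene (25 and 19 tags). EIF3K had a further list 2 peak at its far end (54 tags, fold 7.65), the highest fold among unshared member peaks. EIF3I had a list 1 peak at its promoter (66 tags, fold 4.42), which also covered the promoter window of TMEM234. It had another list 1 peak at its far end (57 tags, fold 4.78), and none in list 2. EIF3D and EIF3M had list 2 peaks only (49 and 34 tags), and EIF3C, EIF3CL, EIF3E, EIF3G and EIF3L had none. EIF3C and EIF3CL are near-identical copies, as EIF5AL1 is of EIF5A and EIF2S3B of EIF2S3, and the headers name files of uniquely aligned reads, so the lack of a peak at these genes is uncertain.

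Of the 5 eIF4 paralogues with other roles, 2 had a shared peak, and of the 4 eIF4E binding proteins 0 had one. EIF4A3, the helicase of the exon junction complex, had 48 tags in each list over 735 bp in list 1 and 763 bp in list 2, with folds of 6.25 and 6.46. EIF4G2, a scaffold used in cap-independent initiation, had broad peaks of 144 tags over 1827 bp and 165 tags over 2306 bp at low folds of 3.8 and 4.37. EIF4E2 had a list 1 peak (30 tags, fold 5.83) that also covered the window of TIGD1, and EIF4E1B a list 2 peak (105 tags, fold 4.84) over the window of TSPAN17 and not its own. EIF4E3 had none. Of the binding proteins that hold eIF4E inactive, EIF4EBP2, EIF4EBP3 and the transporter EIF4ENIF1 had no peak, and EIF4EBP1 had a list 2 peak inside the gene (40 tags, fold 3.71), the lowest fold of any member peak in that list.

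EIF5A and EIF5A2 encode the hypusine-bearing factor that relieves stalled ribosomes. EIF5A had 74 tags over 996 bp in list 1 and 96 over 1884 bp in list 2, with folds of 8.7 and 4.11. EIF5A2 went the other way, with 62 tags and a fold of 5.57 (FDR 100%) in list 1 and 93 tags and a fold of 11.17 (FDR 0.18%) in list 2, at summits 1 bp apart. EIF6, which keeps ribosomal subunits apart, had a promoter peak in list 1 (83 tags, fold 4.5) and a list 2 peak past its other end (124 tags, fold 4.69) over the windows of other genes. Among members in no complex, EIF1AD had a list 2 peak of 181 tags (fold 5.6) shared with the promoter of BANF1 and EIF2A a list 2 peak of 120 tags (fold 7.24) shared with that of SERP1, while EIF2D had none.

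**Figure D3:**
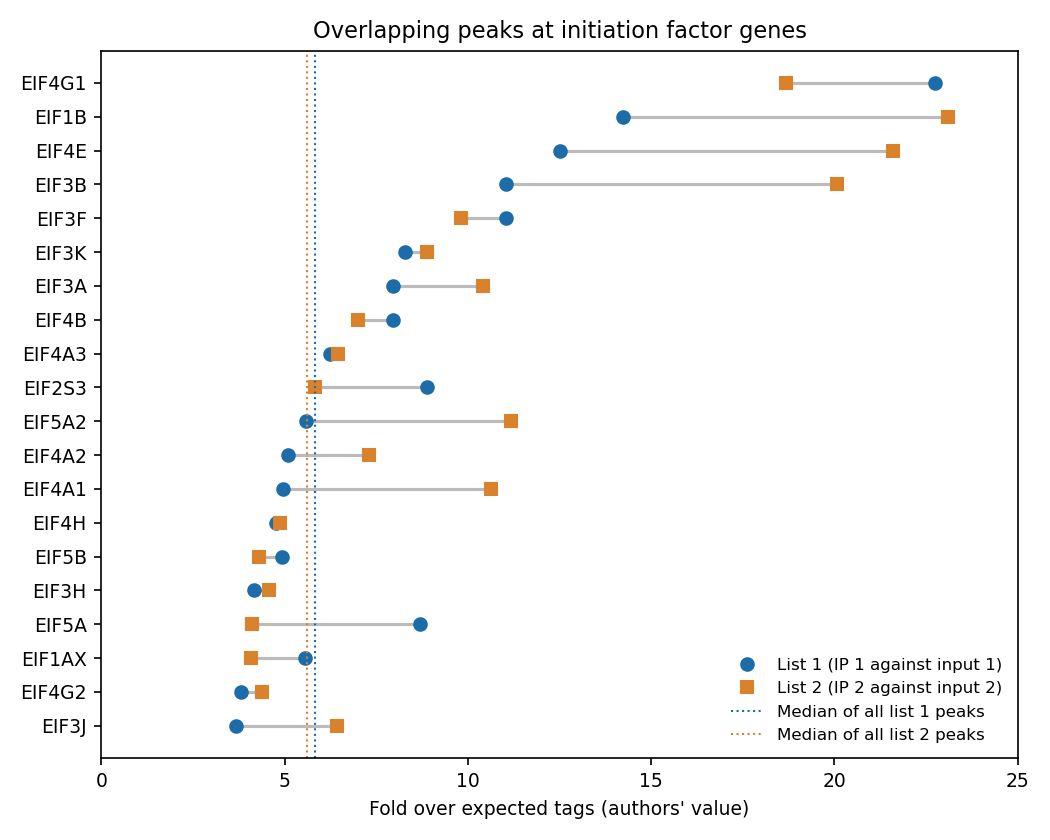
Fold over expected tags, the authors' value, is plotted for the shared peaks of 20 initiation factor genes, with circles for list 1, squares for list 2 and dotted lines at the median of all peaks of each list. EIF4G1, EIF1B, EIF4E and EIF3B have folds of at least 11.05 in both lists. Further down, the lower fold of the pair falls to the medians and below. EIF5A2 (11.17) and EIF4A1 (10.63) stay well above the median in list 2, and EIF2S3 (8.88) and EIF5A (8.7) in list 1.

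The 20 genes with a shared peak held 21 overlapping pairs of peaks. Fold was higher in list 2 in 14 pairs (66.7%, beside 62.7% of all 5376 overlapping pairs of the lists). Tags scaled to the kept IP tags of each library were higher in list 2 in 16 pairs (76.2%, beside 71.7%). The list 2 peak was wider in 16 (76.2%, beside 66%). The median width in these pairs was 953 bp in list 1 and 1289 bp in list 2. In 12 pairs the list 1 peak lay wholly inside its partner, as it did in 2068 of all 5376. Overlap covered a median of 100% of the list 1 peak and 72.6% of the list 2 peak, beside 95.8% and 83.2% over all pairs. Summits were a median of 20 bp apart, beside 38 bp over all pairs. They lay within 100 bp in 18 of the 21 (85.7%, beside 75.2%). The exceptions were EIF4A2 (623 bp), EIF3J (280 bp) and 1 of the EIF5B pairs (1281 bp).

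Between the lists, Spearman's rho over the 21 pairs was 0.696 for tag counts, 0.632 for folds and, lowest, 0.326 for widths. These describe peaks that share libraries and, at EIF5B, a peak, and the corresponding values over all pairs were 0.803, 0.567 and 0.674. Stricter cutoffs left 6 genes each. Folds of 8 or more on both sides of the pair were found at EIF4G1, EIF1B, EIF4E, EIF3B, EIF3F and EIF3K (11.5% of members, beside 3.3% of all protein-coding genes). FDRs of 5% or less on both sides were found at the same genes with EIF4B in place of EIF3K (11.5%, beside 1.31%). At this FDR list 1 alone left 6 members (11.5%, beside 1.33%) and list 2 alone 23 (44.2%, beside 25.9%), so list 1 set the count.

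Member peaks carried more tags than the lists at large. The median was 76 tags over 942.5 bp for the 26 member peaks of list 1, against 44 tags over 761 bp for the whole list. In list 2 it was 88 tags over 1191 bp for 39 member peaks, against 49 tags over 873 bp. Compared with peaks at all protein-coding genes, the difference was smaller in list 1 (50 tags over 815 bp) and in list 2 (56 tags over 962 bp). Median fold was 5.56 for list 1 member peaks and 6.43 for list 2 member peaks, against 5.83 and 5.6 over the whole lists, so the list 1 member peaks had a slightly lower median fold than their list and the list 2 member peaks a higher one. Shared member peaks reached 22.75-fold in list 1 and 23.11-fold in list 2, while the highest unshared ones were 5.83-fold and 7.65-fold.

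**Figure D4:**
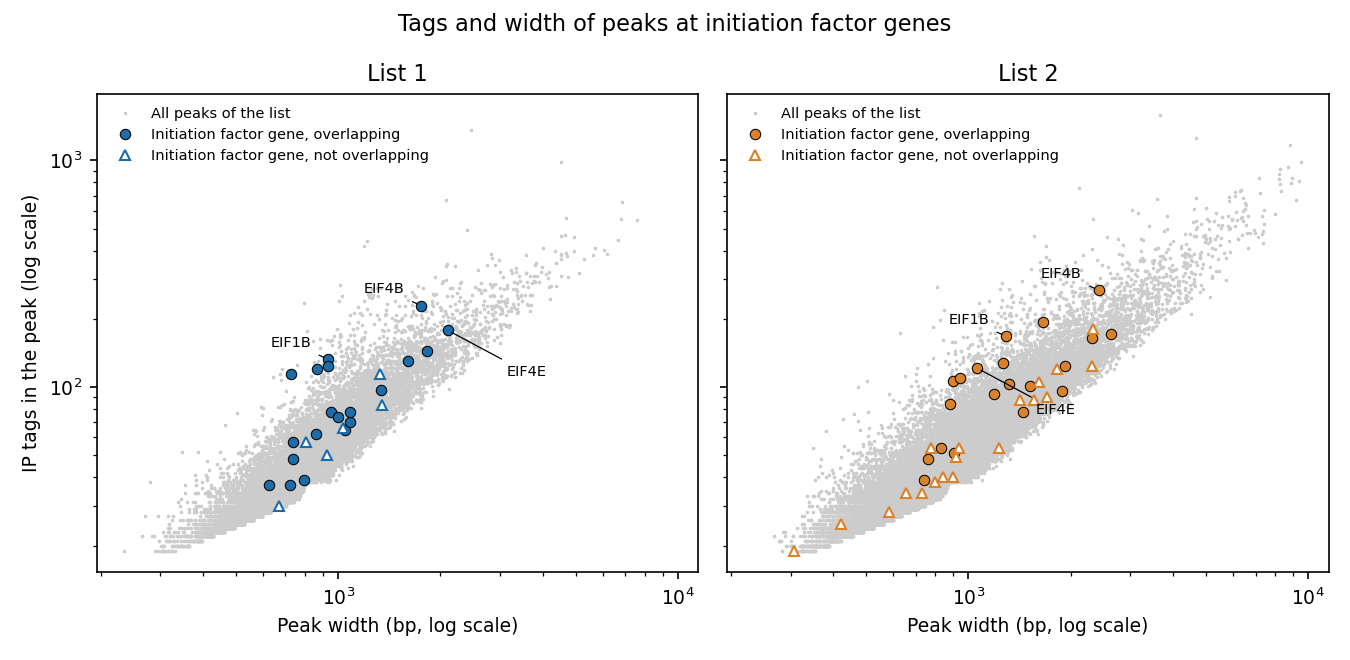
IP tags per peak are plotted against peak width in bp on log axes for list 1 and list 2, with all peaks of the list in grey, member peaks that overlap the other list as filled circles and the rest as open triangles. EIF4B has the most tags among members in both lists, and EIF4E has a wider peak in list 1 than in list 2.

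At members with a RefSeq promoter window (250 bases before to 50 after the start site), 22 of 24 list 1 peaks covered a window of their own gene (91.7%, beside 38.6% of peaks at all protein-coding genes with a window). In list 2, 23 of 32 did (71.9%, beside 38.4%) and 9 did not. Windows were at hand for 44 of the 52 members, the others being EIF2S2, EIF3A, EIF3CL, EIF3E, EIF3G, EIF3H, EIF3L and EIF4EBP1. Peaks also reached windows of other genes in 9 cases in list 1 and 11 in list 2, among them those of EIF3J-DT, EIF2B5-DT and TMEM234. Where windows of several genes lie under it, a peak cannot be given to one gene.

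CACGTG was found in the promoter windows of 9 of the 17 members whose window lay under a shared peak (52.9%, beside 32.9% of the 2012 protein-coding genes with such a window). It was found in 2 of the 27 members without one (7.41%, beside 7.58%), and in 10.9% of all 15842 protein-coding genes with a window. The motif reads the same on both strands. It is contained in the broader CANNTG, which 16 of the 17 held (94.1%, beside 69.5% of the protein-coding genes with a window under a shared peak). EIF4E, EIF4G1 and EIF5A2 held CACGTG 2 times each, and the promoters of EIF4E, EIF4G1, EIF1B, EIF3F and EIF3K are printed above. The other motifs under shared peaks are shown with 10 bases on each side to let their flanks be compared, CACGTG in capitals.
EIF4B, chr12:53006424-53006449, plus strand: ccgctataatCACGTGattgcctcat
EIF4H, chr7:74174147-74174172, plus strand: gccgccgcacCACGTGggctgcagag
EIF4A3, chr17:80147234-80147259, minus strand: agttccctttCACGTGacgaagagtg
EIF5A2, chr3:170908809-170908834, minus strand: taatccgcagCACGTGgggttgccag
EIF5A2, chr3:170908784-170908809, minus strand: gggcgctcttCACGTGactgggcgga

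The windows of EIF2B3, an eIF2B subunit gene, and EIF4EBP3, a binding protein gene, also held CACGTG but were under no peak of either list. They are shown for contrast with those above.
EIF2B3, chr1:44986759-44986784, minus strand: cagagggacaCACGTGtcgaatgctc
EIF4EBP3, chr5:140547639-140547664, plus strand: ccagcagctgCACGTGgtcggctgag

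Of the 12 motifs under shared peaks, 10 read TCACGTG on one strand or the other (83.3%, beside 76.3% of 727 such motifs over all protein-coding genes), and neither of the motifs at EIF2B3 and EIF4EBP3 did. Away from shared peaks the figure over all protein-coding genes was 36.3%. This flank was chosen for counting after the sequences were seen. The E-box nearest to the summit was at a median distance of 16 bp (list 1) and 25 bp (list 2) over the 9 genes, beside 21 bp and 18 bp over 661 genes. At EIF3F it was 6 bp from the list 1 summit and 0 bp from that of list 2, and at EIF1B 9 bp and 4 bp. The EIF4E motifs began at positions -225 and -72, and the list 2 summit was 6 bp from the outer one while the list 1 summit lay between them, 87 bp and 65 bp away. Those of EIF4G1 began at -144 and -67, and both summits fell between them. The other 8 members with a shared peak over the window held no CACGTG there. These include EIF3B and EIF2S3, whose summits lay outside the window in both lists, and EIF4G2 and EIF5A. They also include EIF4A2, EIF5B and EIF3J, whose list 2 summits lay outside it, at positions 549, -1243 and 127. A match describes letters in the window and does not show which bases were bound.

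**Figure D5:**
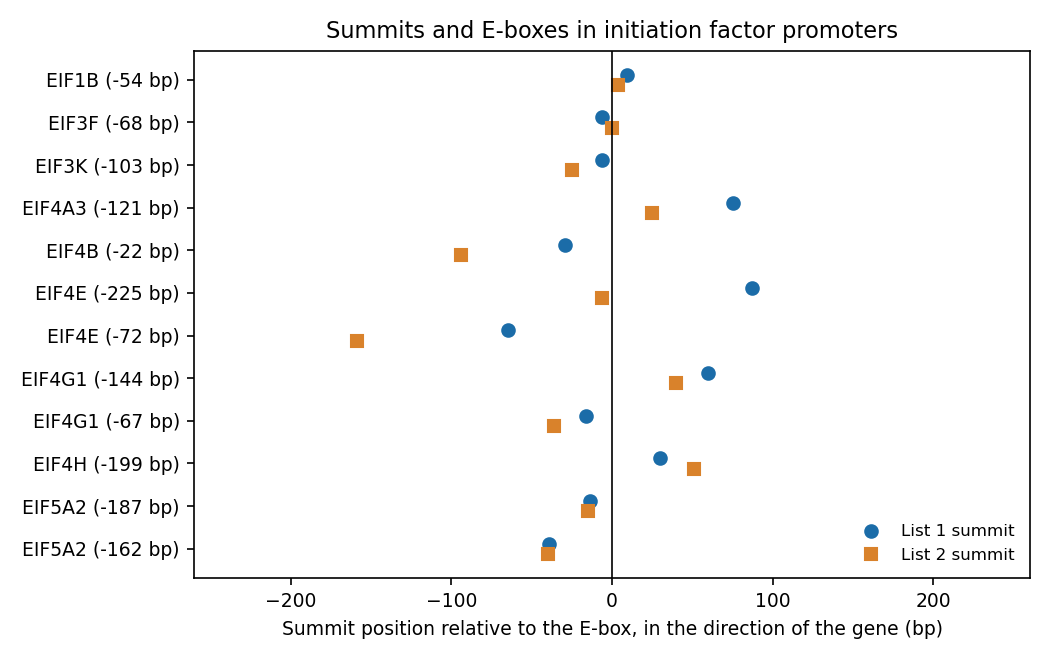
Positions of the list 1 (circles) and list 2 (squares) summits relative to each E-box are plotted in bp along the direction of the gene, for 12 motifs in 9 promoters; the bracket gives the motif's first base relative to the start site. Summits at EIF1B and EIF3F lie within 9 bp of the motif in both lists, and those of EIF4G1 lie between its 2 motifs.

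Other genes of translation were counted by the same rule. Of 24 genes that control initiation, 7 had a shared peak (29.2%, beside 16.9% of all protein-coding genes). A list 1 peak was found at 8 of them (33.3%, beside 25.9%) and a list 2 peak at 16 (66.7%, beside 47%). The highest by the lower of the folds were DDX3X, a helicase gene (209 tags and fold 6.54 in list 1, 255 tags and fold 8.55 in list 2), DENR, a reinitiation factor gene (83 and 48 tags, folds 7.9 and 4.84), PPP1R15A, a subunit of the eIF2 alpha phosphatase (77 and 123 tags, folds 4.58 and 6.79), and MTIF2, a mitochondrial initiation factor gene (90 and 98 tags, folds 4.56 and 4.54). Among the 4 EIF2AK kinase genes, EIF2AK3 had a shared peak (117 and 95 tags, folds 6.05 and 3.94) and the other 3 had list 2 peaks only. Of 16 genes of elongation and termination, 4 had a shared peak (25%, beside 16.9% of all protein-coding genes). EEF2, the translocase gene, had 83 tags and a fold of 8.26 in list 1 and 115 tags and a fold of 11.2 in list 2. EEF1A1, which delivers aminoacyl tRNA, had 151 and 166 tags with folds of 7.85 and 13.39. ETF1, the release factor gene, had 114 and 102 tags with folds of 6.93 and 5.26, and PELO, a ribosome rescue factor gene, 80 and 75 tags with folds of 4.17 and 5.31. By the lower of the folds of a pair, EEF2 (8.26) was the highest of these named genes, and EIF4G1 (18.68), EIF1B (14.24), EIF4E (12.5), EIF3B (11.05), EIF3F (9.82) and EIF3K (8.27) lay above it.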

How the data were processed

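Binding was measured by ChIP-seq in 4 libraries, 2 immunoprecipitates and 2 inputs. The authors called peaks with MACS 1.4.2, per the file headers, for each IP against the input of its number, at a p cutoff of 1e-05, with at most 1 tag kept per position, the larger library scaled to the smaller, and local background windows of 1000 and 10000 bp. The headers name 1 IP and 1 input per list, so replicates were kept apart. The GRCh38 build, Bowtie2, deepTools and HOMER are named per the submitters' processing notes, without roles. Deposited with every peak were a count of tags, a fold (ratio) over expected tags, a score of minus 10 times log10 of the Poisson p, an FDR in percent, a width and a summit offset. Aligner settings are not given in the sources used here.

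Peaks were assigned to RefSeq genes of GRCh38.p14 by centre, in the gene or within 1000 bp, with Python 3.11.15, numpy 2.4.6, pandas 2.3.3 and scipy 1.17.1. Figures were drawn with matplotlib 3.10.9. Assignment and overlap were tested on simulated data. Peaks on unplaced scaffolds were left out. Start sites and strands come from the RefSeq promoter table, and every window of a gene was counted. Members and lists were chosen with earlier results of these data known. Named genes are all members with a peak, and up to 4 genes of each related list by the lower fold. Printed promoters are the 6 with the highest lower fold among members with a shared peak over the window, and EIF4A1. EIF2AK3 is named outside the rule, after its values were seen. Counts of tags are limited to counting precision, and no test between the 2 lists was made.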

Additional observations from a re-analysis of the deposited data

How the results depend on the processing

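Of the 52 initiation factor genes, the number with a shared peak (20 as reported) was 12 with the gene body alone, 6 at a fold of at least 8, 8 at a score of at least 100 and 6 at an FDR of at most 5%. These stood beside 11.9%, 3.3%, 6.33% and 1.31% of all protein-coding genes. It ranged from 25 without replicate 2 to 32 without replicate 1, where a single list counts. The number with a list 1 peak (25) was 13, 8, 11 and 6 under the same 4 settings, beside 17.9%, 5.33%, 9.36% and 1.33% of all protein-coding genes. The number with a list 2 peak (32, or 61.5% beside 47%) was 13 with the gene body alone, which is 25% of members and below the 35.7% of all protein-coding genes. It was 9 at a fold of at least 8 and 20 at a score of at least 100, beside 9.67% and 22.5%. Each stricter setting keeps fewer peaks, and the gene body alone drops peaks centred outside it. In all, 26 counts and shares stayed within 1.5 times the reported number or within counting error, among them reciprocal overlap of 50% and summits within 200 bp. That label looks at the count and not at the share of all genes. With each peak given to its nearest protein-coding gene alone, 25 members had a list 2 peak (48.1%, beside 41.3%). Under that setting 23 had a list 1 peak (44.2%, beside 22.1%) and 19 a shared peak (36.5%, beside 14.6%). The promoter window alone and the leaving out of EIF1AY and of members with near-identical copies are settings added with the results in view. No paired analysis was possible because the peak lists hold no input tags to pair with the IP tags, and IP 1 and IP 2 belong to a single group. A member without a peak had none past the caller's cutoff at this depth, which does not show that USF1 was absent.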

Other observations

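Non-coding genes with symbols beginning EIF1 to EIF6 were counted by the same rule. They include the long non-coding RNA genes EIF2AK3-DT and EIF2AK3-AS1, named after a kinase gene outside the set. None of the 90 pseudogenes had a list 1 or a shared peak (beside 1.26% and 0.528% of all 17051 pseudogenes), and 2 (beside 2.62%), EIF3IP2 (60 tags, fold 5.71) and EIF4A1P6 (44 tags, fold 8.4), had a list 2 peak. Of the 7 long non-coding RNA genes, 4 had a list 1 peak, 4 a list 2 peak and 3 a shared peak, beside 12.2%, 22.6% and 6.65% of all 18303 such genes. The peaks at EIF2B5-DT and EIF3J-DT are the same peaks counted for EIF2B5 and EIF3J, and those at EIF2AK3-DT have the values given for EIF2AK3, so these counts are not separate from those of the protein-coding genes. Inside or beside EIF1B-AS1, list 1 held 2 further peaks besides the one at the EIF1B promoter, of 58 tags (fold 10.04) and 49 tags (fold 4.4), and both overlapped list 2 peaks. In list 2 there were 4 further peaks, the highest of 89 tags and a fold of 12.04.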
